A study of Mus musculus with 4 samples.

Results

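The genes described here encode the enzymes that write and erase methyl groups on histones and DNA, together with the histone deacetylases (HDACs) and the sirtuins. They were taken from the deposited count tables by name: every gene of the Kdm, Kmt, Hdac, Setd, Ezh, Sirt, Dnmt and Tet families with a plain numbered symbol, except 3 genes of the Kdm5 and Kdm6 families, plus Suz12 and Eed. This gave 61 genes of the 31017 in the tables. Of these, 18 are deacylases (11 HDACs and 7 sirtuins) and 43 belong to the methylation families or the Polycomb repressive complex 2 (PRC2), so the set is wider than methylation enzymes alone. The study sequenced bulk polyA RNA from wild type beta cells, the insulin-producing cells of the pancreatic islets, in 4 libraries. The donors were male C57BL/6J mice aged 10 weeks, whose islets were cultured overnight, dissociated and sorted by flow cytometry on the surface protein CD63, with 2 libraries of CD63 high and 2 of CD63 low cells. Both groups are labelled wild type with no treatment named, and whether replicates are separate mice, pools or sorts is not stated in the labels.

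Methyl groups on the lysines of histone tails mark active or silent chromatin, depending on the residue. The KMT2 and SETD1 enzymes methylate H3K4 at promoters and enhancers, and PRC2 places the repressive mark on H3K27. KDM enzymes remove such marks, by a flavin-dependent (LSD) or an iron- and 2-oxoglutarate-dependent (Jumonji) reaction. DNMT enzymes methylate cytosine in CG dinucleotides and TET enzymes oxidise that mark, while HDACs and the NAD-dependent sirtuins remove acetyl and other acyl groups from histones and many other proteins. In beta cells Dnmt3a and PRC2 are known for keeping genes of other cell states silent.

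The libraries held 29249270 to 35003307 counts, and 26307 to 50023 of them fell on the 61 genes. Cd63 itself, which checks the labels, stood at 1973 and 2076 CPM (counts per 1000000, scaled by TMM) in CD63 high cells and at 1186 and 1120 CPM in CD63 low cells. All 10 beta cell markers were detected in each library, and 3 of them were called lower in CD63 high cells. Markers of other cells were unequal between the groups: 7 of 8 macrophage genes were called higher in CD63 high cells, with summed levels of 107 and 431 CPM against 19.2 and 32.2 CPM. For alpha cells 2 of 6 tested genes were called higher, with sums of 5386 and 6077 against 429 and 479 CPM, and for acinar cells 2 of 7, with sums of 641 and 1065 against 19.9 and 251 CPM. The calls for delta, gamma and duct cells were 3 of 3, 3 of 3 and 1 of 4, all higher, and none of the 5 tested endothelial, stellate and lymphocyte genes was called. The lymphocyte genes Cd3e, Cd3d, Ms4a1 and Nkg7, the endothelial gene Cdh5 and the acinar gene Amy2a5 had no count in any library. Neither had the duct gene Cftr. In bulk libraries a smaller share of cells of a type cannot be told apart from less RNA per cell, and the part of these other cells in the values below was not tested.

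Of the 61 genes, 59 had enough counts to be tested, and none was called higher or lower in CD63 high cells. The call required an adjusted p under 0.05 (edgeR, quasi-likelihood, Benjamini-Hochberg over all 13241 tested genes), which 2.79% of all tested genes reached (2.50% higher and 0.287% lower). At an unadjusted p under 0.05, 8 of the 59 were lower and 0 higher, where 14.9% of all tested genes had such a p (5.96% lower and 8.95% higher). DESeq2 called 1 of the 59, Hdac6, where it called 5.18% of all tested genes, and limma-voom 0, where it called 2.14%. The smallest adjusted p was 0.0721, for Hdac6. For 34 of the 59 genes (57.6%) the 95% interval of the difference lay within a 2-fold change in either direction, against 49.3% of all tested genes, and for the other 25 the interval reached a 2-fold change, so a difference of that size remained possible.

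Differences leaned towards lower values in CD63 high cells. The log2 fold change of CD63 high over CD63 low was below 0 for 40 of the 59 genes and above 0 for 19, with a median of -0.17, against 51.4% below 0 and a median of -0.01 over all tested genes. The median stayed below 0 under every alternative, between -0.24 and -0.065. The value of -0.065 came from removing each library's trend with transcript length, where the median of all genes was 0.01. In that fit 37 of 59 genes were below 0, against 48.9% of all tested genes. These genes had long transcripts, with a median annotated length of 6678 bases against 4201 for all tested genes, and log2 fold changes declined with length across all tested genes (Spearman rho -0.24 over 13241 genes, which are not independent). Among the 59 genes rho was -0.13. The 2 CD63 high libraries lay entirely below the 2 CD63 low libraries for 21 of the 59 genes and entirely above for 1, Setd7. These 22 genes are 37.3% of the 59; over all tested genes 46.0% did not overlap, 22.2% entirely below and 23.8% entirely above.

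**Figure D1:**
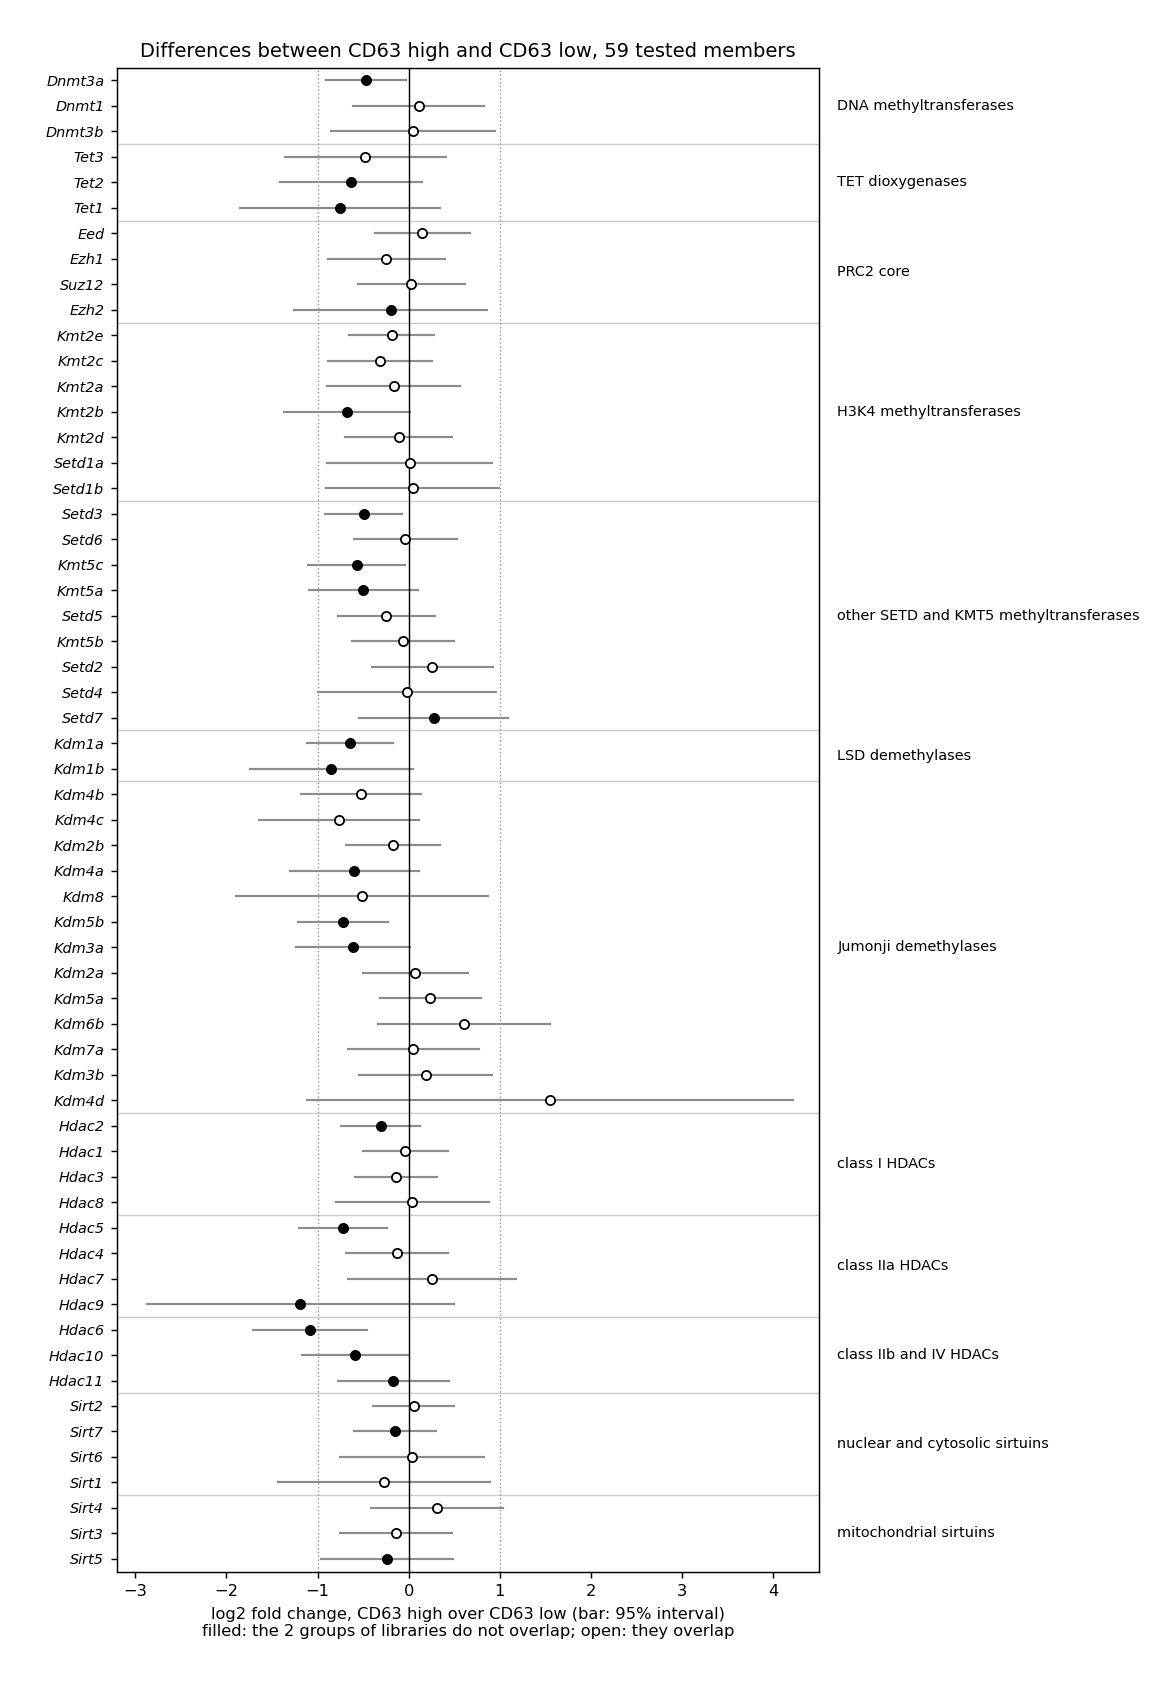
Log2 fold change of CD63 high over CD63 low (x axis) for the 59 tested genes, ordered by role, with 95% intervals as bars. Filled points mark genes whose 2 groups of libraries do not overlap, and dotted lines mark a 2-fold change: 40 points lie left of 0, and Hdac9, Hdac6 and Kdm4d lie beyond the dotted lines.

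Levels between genes were compared per length, as FPKM (total-count CPM per kilobase of annotated exon). The 59 genes ranged from 0.0814 to 18.5 FPKM (mean of 4 libraries), with a median of 1.34 against 2.33 for all tested genes. Levels of at least 10 FPKM were reached by 7 genes, namely Hdac6, Hdac2, Kdm1a, Hdac1, Setd3, Sirt2 and Hdac3. Among these 7 the ranges over libraries of neighbours in the order overlapped, such as 14.6 to 22.02 FPKM for Hdac2 and 8.49 to 18.7 FPKM for Kdm1a. A further 30 genes lay between 1 and 10 FPKM and 22 below 1 FPKM. The most abundant transcripts came from the deacylases, the LSD demethylase Kdm1a and Setd3, and the large H3K4 methyltransferases and the TET enzymes lay near or below 1 FPKM, except for Kmt2e.

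**Figure D2:**
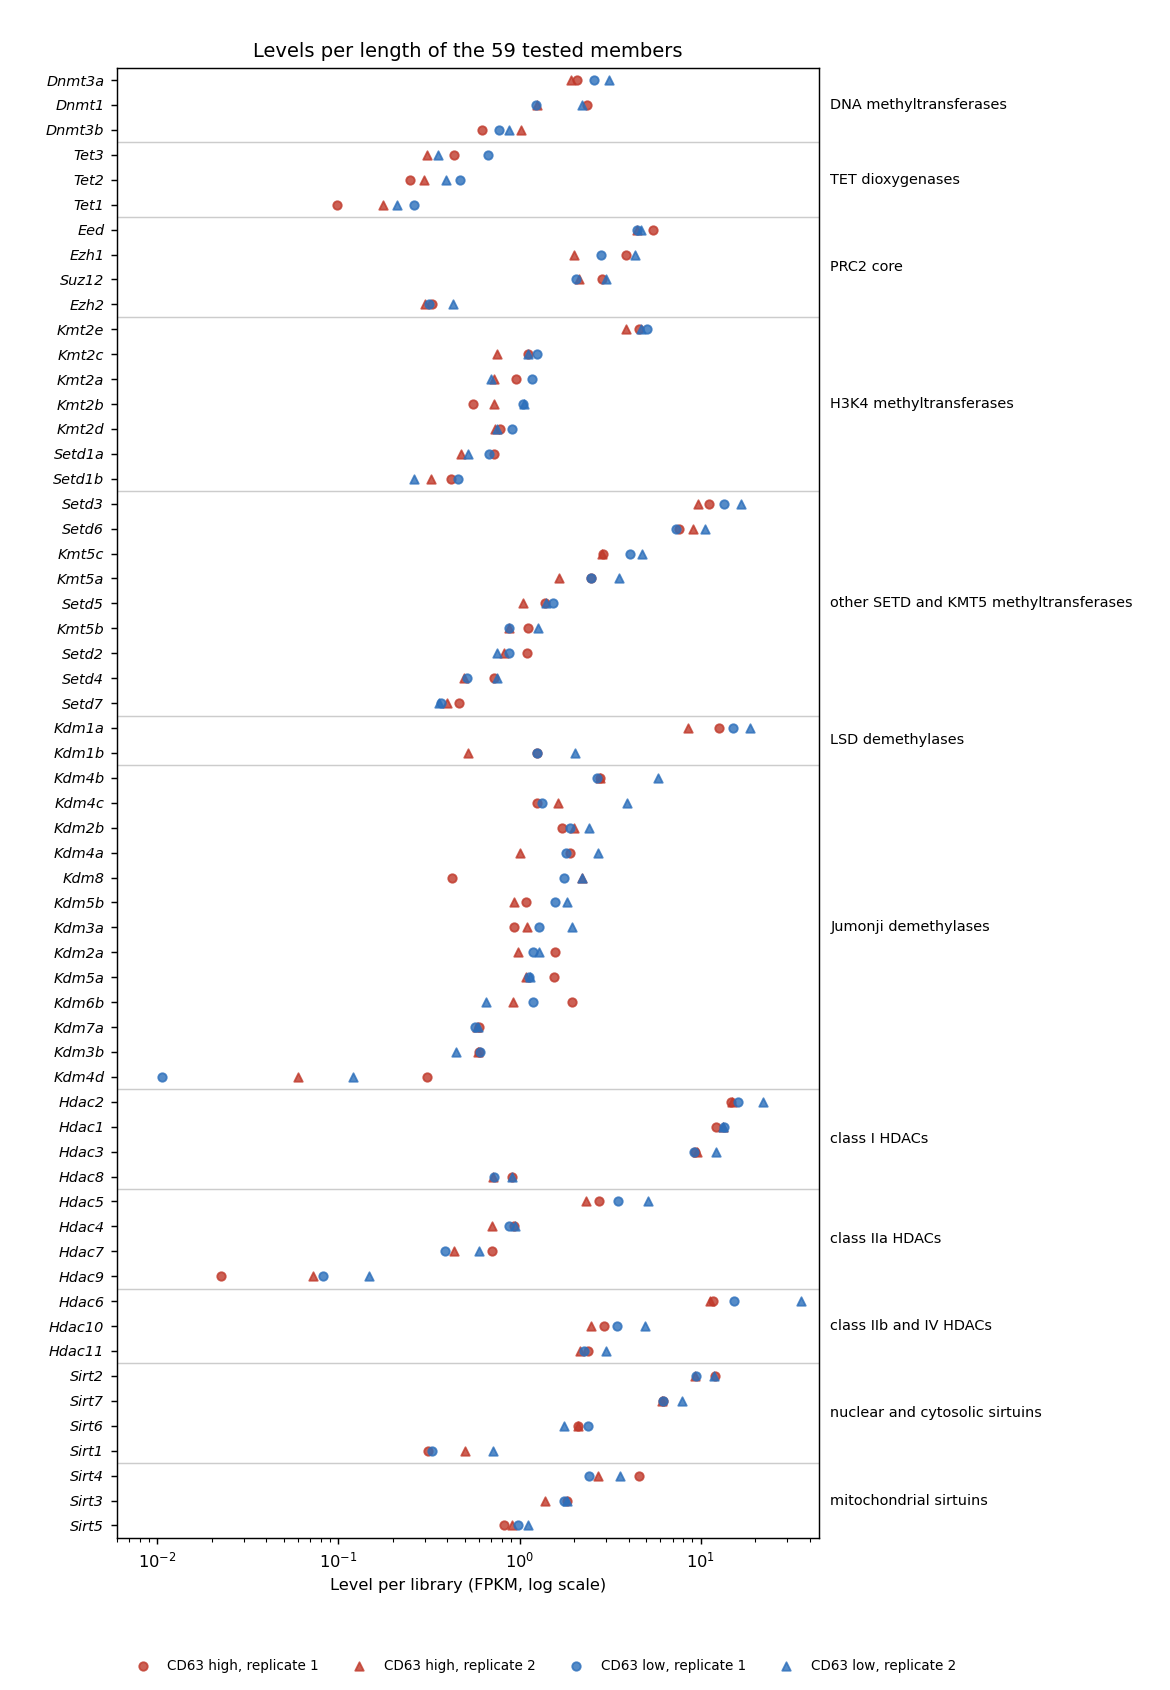
Level per length (FPKM, log scale) of the 59 tested genes in each library, ordered by role and, within a role, by mean level. Red marks CD63 high and blue CD63 low libraries, circles replicate 1 and triangles replicate 2, and the spread between libraries is widest for the genes at the lowest levels, Kdm4d and Hdac9.

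Hdac6 (chromosome X, 7930120 to 7947889, mm10) is a mainly cytoplasmic deacetylase of tubulin and other proteins. Among the HDACs it had the highest mean level per length and the smallest p. Its rank by level rested on CD63 low replicate 2, with 35.9 FPKM against 22.02 FPKM for Hdac2. In each of the other libraries Hdac2 lay above Hdac6, and Hdac1 did so in both CD63 high libraries. Hdac6 stood at 65.8 and 68.8 CPM in CD63 high replicates 1 and 2. In CD63 low replicates 1 and 2 it stood at 97.0 and 188 CPM. The groups did not overlap, but the CD63 low libraries lay 1.93-fold apart, a gap that 4.52% of genes with at least 100 counts per library on average reached. The log2 fold change was -1.08 (SE 0.28, 95% interval -1.703 to -0.46) and edgeR's adjusted p 0.0721. The size of this difference rested on CD63 low replicate 2: it was -0.51 without that library (edgeR adjusted p 0.350) and -1.48 without CD63 low replicate 1 (2.43e-05). Of 13 alternatives without a replicate block, 4 called Hdac6 lower, with adjusted p between 2.43e-05 and 0.350 over all 13. Its relative Hdac10, a polyamine deacetylase, stood at 9.57 and 8.84 CPM against 12.7 and 14.9 CPM (log2 fold change -0.59, SE 0.26, edgeR adjusted p 0.332), and Hdac11, the class IV enzyme, was at -0.17 (SE 0.28). All 3 of these genes had lower values in both CD63 high libraries, as did 22.2% of all tested genes, and none was called.

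Class IIa HDACs act mainly as corepressor scaffolds that leave the nucleus when calcium-dependent or other kinases phosphorylate them. Hdac5 (chromosome 11, 102194432 to 102230166) stood at 23.3 and 21.6 CPM in the CD63 high replicates and 33.4 and 40.6 CPM in the CD63 low ones. These values did not overlap, with a log2 fold change of -0.72 (SE 0.22, edgeR adjusted p 0.128), and none of 13 alternatives without a replicate block called it (adjusted p 0.0539 to 0.462). Hdac9 had the lowest mean level per length of the tested genes, with 10 and 31 counts against 40 and 76. Its log2 fold change of -1.19 carried a standard error of 0.76 (edgeR adjusted p 0.529). CD63 high replicate 1 set much of that size, since the value without it was -0.55 and without CD63 high replicate 2 -2.35. Hdac4 (-0.13, SE 0.25) and Hdac7 (0.25, SE 0.42) overlapped between the groups. Per length, Hdac5 exceeded Hdac4 by 2.95- to 5.43-fold and Hdac9 by 32.2- to 122-fold in the 4 libraries.

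The region before the start site is shown for Hdac6, Hdac5 and Hdac9. Among the tested HDACs they hold, in that order, the highest mean level per length, the smallest p of class IIa and the lowest mean level. The sequences are the 250 bases before the most upstream RefSeq start of each gene (GRCm38.p6), 5′ to 3′ on the strand of the gene. Whether these starts are used in these cells was not tested. Each CG dinucleotide, the target of DNMT and TET enzymes, is in capitals.
Hdac6 (chrX:7947890-7948139, minus strand): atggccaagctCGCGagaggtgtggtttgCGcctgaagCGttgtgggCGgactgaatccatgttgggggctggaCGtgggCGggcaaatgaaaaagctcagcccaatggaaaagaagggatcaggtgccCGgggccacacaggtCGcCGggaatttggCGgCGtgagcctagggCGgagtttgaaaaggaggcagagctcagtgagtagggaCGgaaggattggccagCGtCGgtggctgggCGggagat
Hdac5 (chr11:102230173-102230422, minus strand): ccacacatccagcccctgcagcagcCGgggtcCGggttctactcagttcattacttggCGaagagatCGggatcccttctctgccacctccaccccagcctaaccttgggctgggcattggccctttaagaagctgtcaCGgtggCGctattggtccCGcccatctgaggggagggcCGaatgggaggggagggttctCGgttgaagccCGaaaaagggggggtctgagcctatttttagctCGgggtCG
Hdac9 (chr12:34917096-34917345, minus strand): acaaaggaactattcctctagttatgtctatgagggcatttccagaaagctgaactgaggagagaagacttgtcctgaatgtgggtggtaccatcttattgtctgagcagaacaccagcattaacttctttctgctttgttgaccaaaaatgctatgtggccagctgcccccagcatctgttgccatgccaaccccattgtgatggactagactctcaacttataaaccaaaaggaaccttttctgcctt
They hold 17, 12 and 0 CG, and none overlaps an exon of the deposited tables. Windows of 300 bases (250 before and 50 after the most upstream start) were found for 48 of the 59 tested genes. The motif searched was CG, which reads the same on both strands and was present in 94.2% of 27025 gene windows. Of the 48 windows, 40 (83.3%) had at least 50% G+C and a CG count at least 0.6 of that expected from base composition. Over all 27025 gene windows the share was 34.1%, but these include windows of genes without enough counts to be tested. The share among windows of all tested genes was not computed, so whether the 48 stand out from other tested genes was not tested. These values describe the letters of the windows and say nothing of their methylation, which was not measured.

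Of the class I HDACs, Hdac1 and Hdac2 are catalytic subunits of the Sin3, NuRD and CoREST corepressor complexes and Hdac3 of NCoR, while Hdac8 acts on cohesin. Hdac2, the most abundant of the class, stood at 63.5 and 70.8 CPM in the CD63 high replicates and 77.8 and 88.5 CPM in the CD63 low ones, without overlap (log2 fold change -0.31, SE 0.20, edgeR adjusted p 0.522). Hdac1 (-0.04, SE 0.21), Hdac3 (-0.14, SE 0.20) and Hdac8 (0.04, SE 0.38) overlapped between the groups. For all 4 the 95% interval lay within a 2-fold change. Hdac2 was 1.12- to 1.66-fold above Hdac1 per length and 16.1- to 24.4-fold above Hdac8.

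The LSD demethylases remove methyl groups from H3K4. Kdm1a, known as LSD1 (chromosome 4, 136550540 to 136602723), stood at 63.7 and 46.4 CPM in the CD63 high replicates and 84.7 and 86.9 CPM in the CD63 low ones. The groups did not overlap (log2 fold change -0.64, SE 0.21, edgeR adjusted p 0.167), and the value ranged from -0.89 to -0.43 when each library was left out in turn. Kdm1b, which acts in growing oocytes and elsewhere, was lower per length by 9.26- to 16.4-fold, at 6.64 and 2.996 CPM against 7.41 and 9.96 CPM. Its log2 fold change was -0.85 (SE 0.40, edgeR adjusted p 0.367), its exons overlap those of Dek, and it was called only without CD63 high replicate 1. Both LSD genes thus had lower values in both CD63 high libraries, as did 22.2% of all tested genes, and neither passed the test.

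Jumonji demethylases were the largest group, with 13 tested genes, of which 7 were below 0 and 6 above (median log2 fold change -0.17). Kdm5b, an eraser of H3K4 methylation (chromosome 1, 134560171 to 134635285), stood at 17.4 and 16.2 CPM in the CD63 high replicates and 28.4 and 27.1 CPM in the CD63 low ones. Its replicates lay close together and the groups well apart, yet the log2 fold change of -0.72 (SE 0.22) had an edgeR adjusted p of 0.131. The value held between -0.77 and -0.67 when each library was left out in turn. Kdm3a, an H3K9 demethylase induced by low oxygen in many cells, was at 7.43 and 9.49 CPM against 11.5 and 14.3 CPM (-0.61, SE 0.28, edgeR adjusted p 0.353).

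The Kdm4 enzymes act on H3K9 and H3K36, and in Kdm4b and Kdm4c the widest gap was between the CD63 low libraries. Kdm4b, the Jumonji gene with the highest level per length (3.52 FPKM), stood at 13.3 and 14.4 CPM in the CD63 high replicates and 14.3 and 25.5 CPM in the CD63 low ones. Its log2 fold change of -0.53 (SE 0.30, edgeR adjusted p 0.461) was -0.028 without CD63 low replicate 2. Kdm4c had 8.37 and 20.6 CPM in the CD63 low libraries (-0.77, SE 0.40), and was called only without CD63 low replicate 1. Kdm4a was at -0.60 (SE 0.32) without overlap. Kdm4d had 27, 5, 1 and 12 counts, too few for its log2 fold change of 1.55 (SE 1.21) to be read.

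The other Jumonji genes were not separated between the groups. Kdm6b, an H3K27 demethylase, had the next highest value above 0 after Kdm4d (0.61, SE 0.43, edgeR adjusted p 0.579), at 13.1 and 6.75 CPM against 8.99 and 4.11 CPM. Kdm8 was uneven within CD63 high, with 31 and 155 counts in replicates 1 and 2, and was called only without replicate 2. Kdm2a, Kdm2b, Kdm3b, Kdm5a and Kdm7a had log2 fold changes between -0.17 and 0.24 and overlapping groups.

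**Figure D3:**
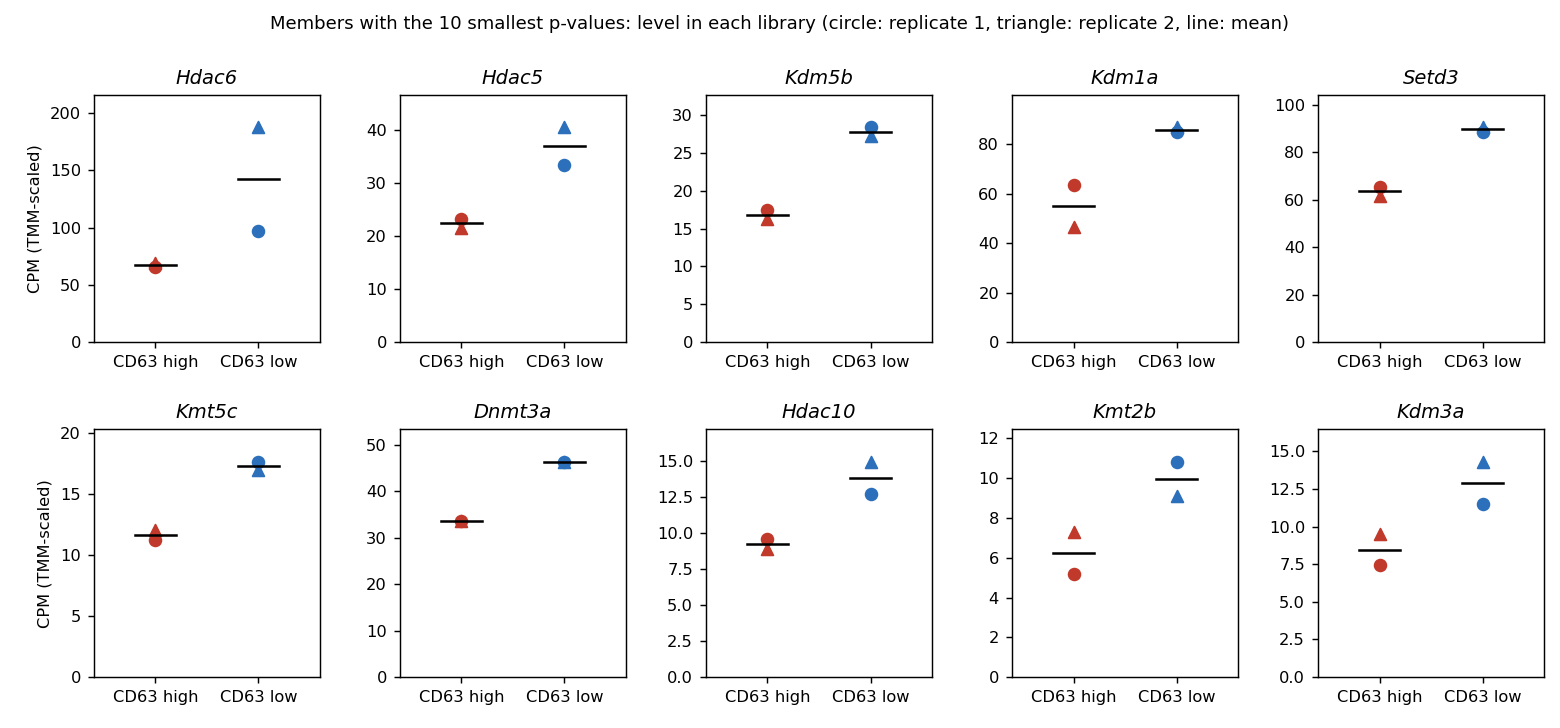
TMM-scaled CPM in each library for the 10 genes with the smallest p-values. Red points are CD63 high and blue points CD63 low libraries, and the line is the mean of 2 libraries. In all 10 panels both red points lie below both blue points, and no edgeR adjusted p was under 0.05. The genes were picked by p in this same comparison, which favours such separation. Over all tested genes 22.2% lay entirely below.

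Among the DNA methyltransferases, Dnmt3a, a de novo enzyme (chromosome 12, 3806007 to 3914443), stood at 33.5 and 33.6 CPM in the CD63 high replicates and 46.3 and 46.5 CPM in the CD63 low ones. Replicates of each group were almost equal, and the log2 fold change was -0.47 (SE 0.20, 95% interval -0.91 to -0.03, edgeR adjusted p 0.303). Dnmt1, which copies methylation after replication, was at 16.8 and 9.71 CPM against 9.92 and 14.7 CPM, so the groups overlapped (0.11, SE 0.33). Dnmt3b, with 97 to 157 counts, was at 0.04 (SE 0.41). Dnmt3c, used in male germ cells, is a close copy of it, and the assignment of reads between both is uncertain. Dnmt3c had 0 of 127642961 counts over the 4 libraries, which allows up to 0.0235 CPM. Dnmt3l, a cofactor without catalytic activity known from germ cells, had 7 and 3 counts in the CD63 high and none in the CD63 low libraries. It was too low to be tested. With 3 counts allowed over the CD63 low libraries together, the observed CD63 high level stood 3.91-fold higher. That ratio makes no allowance for error in the CD63 high counts and is not a lower bound. The exons of Dnmt3l overlap those of Aire, which had no count in any library.

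The TET genes were low, at 0.187 to 0.441 FPKM on average, and all 3 had log2 fold changes below 0. Tet3, the most abundant of them, stood at 7.02 and 5.45 CPM in the CD63 high replicates and 12.1 and 5.31 CPM in the CD63 low ones (-0.48, SE 0.40, edgeR adjusted p 0.659), and without CD63 low replicate 1 its value was 0.23. Tet2, at 4.05 and 5.27 against 8.57 and 5.93 CPM (-0.64, SE 0.35), and Tet1, at 1.47 and 2.89 against 4.41 and 2.93 CPM (-0.75, SE 0.50), did not overlap between the groups. The gap between the nearest libraries was small for both. All 3 intervals reached a 2-fold change.

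None of the 4 PRC2 core genes had an unadjusted p under 0.05. Eed, the subunit that reads H3K27 methylation, stood at 20.2 and 18.0 CPM in the CD63 high replicates and 18.5 and 16.0 CPM in the CD63 low ones (log2 fold change 0.15, SE 0.24, edgeR adjusted p 0.853). Suz12, a scaffold, was at 0.03 (SE 0.27) and Ezh1, one of the catalytic subunits, at -0.25 (SE 0.29), and the intervals of these 3 genes lay within a 2-fold change. Ezh2, the catalytic subunit linked to dividing cells, had 59 to 101 counts per library and was at -0.20 (SE 0.48). Per length, Ezh1 exceeded Ezh2 in all 4 libraries, by 11.7- and 6.59-fold in CD63 high and 8.86- and 10.0-fold in CD63 low. Of the 8 cycling markers listed beside it, 6 had at most 31 counts in any library, such as Mki67 with 12, 5, 0 and 0. The replication genes Mcm5, with 40 to 109 counts, and Pcna, with 792 to 935, were higher, and none of the 6 tested markers was called.

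Of the 7 H3K4 methyltransferase genes none stood out. Kmt2e, whose SET domain is thought to lack methyltransferase activity, had the highest level (4.54 FPKM, with exons that overlap Srpk2), at 46.4 and 42.5 CPM in the CD63 high replicates and 57.3 and 44.0 CPM in the CD63 low ones. Its log2 fold change was -0.19 (SE 0.21, edgeR adjusted p 0.763), and 0.011 without CD63 low replicate 1. Kmt2b was the one member without overlap, at 5.17 and 7.29 against 10.8 and 9.11 CPM (-0.68, SE 0.31, edgeR adjusted p 0.346). Kmt2a, Kmt2c and Kmt2d, the large catalytic subunits, were at -0.17, -0.31 and -0.11, and Setd1a and Setd1b at 0.01 and 0.05. For 6 of the 7, all but Kmt2b, the interval lay within a 2-fold change.

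The remaining SET domain genes act on several substrates. Setd3, an actin histidine methyltransferase (chromosome 12, 108106431 to 108179314), stood at 65.5 and 61.8 CPM in the CD63 high replicates and 88.6 and 90.7 CPM in the CD63 low ones. The groups lay apart with little spread (log2 fold change -0.49, SE 0.19, 95% interval -0.91 to -0.08, edgeR adjusted p 0.242). Kmt5c, which adds further methyl groups to H4K20 after the initial one, was at 11.3 and 12.02 against 17.7 and 17.0 CPM (-0.57, SE 0.24, edgeR adjusted p 0.2995), and Kmt5a, which adds the initial one, at 12.8 and 9.28 against 14.4 and 16.8 CPM (-0.50, SE 0.27). Setd2, which completes H3K36 methylation, was at 0.26 (SE 0.30), and Setd7, an H3K4 enzyme studied in beta cells, at 4.88 and 4.55 against 4.32 and 3.49 CPM (0.27, SE 0.37). Setd4, Setd5, Setd6 and Kmt5b lay between -0.24 and -0.02.

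None of the 7 sirtuins had an unadjusted p under 0.05. Sirt2, a mainly cytosolic deacetylase, stood at 58.9 and 49.6 CPM in the CD63 high replicates and 51.3 and 53.3 CPM in the CD63 low ones (log2 fold change 0.05, SE 0.20, 95% interval -0.39 to 0.49, edgeR adjusted p 0.946). Sirt4, a mitochondrial lipoamidase and deacylase, had the highest level per length of the mitochondrial sirtuins and was at 10.6 and 6.86 against 6.26 and 7.78 CPM (0.31, SE 0.33, edgeR adjusted p 0.738). Sirt1, often studied in beta cells, was 16.4- to 38.3-fold below Sirt2 per length, with 51 to 134 counts per library, and its interval of -1.44 to 0.89 reached a 2-fold change. Over the 7 sirtuins log2 fold changes ran from -0.27 to 0.31, and 5 of the 7 intervals lay within a 2-fold change.

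**Figure D4:**
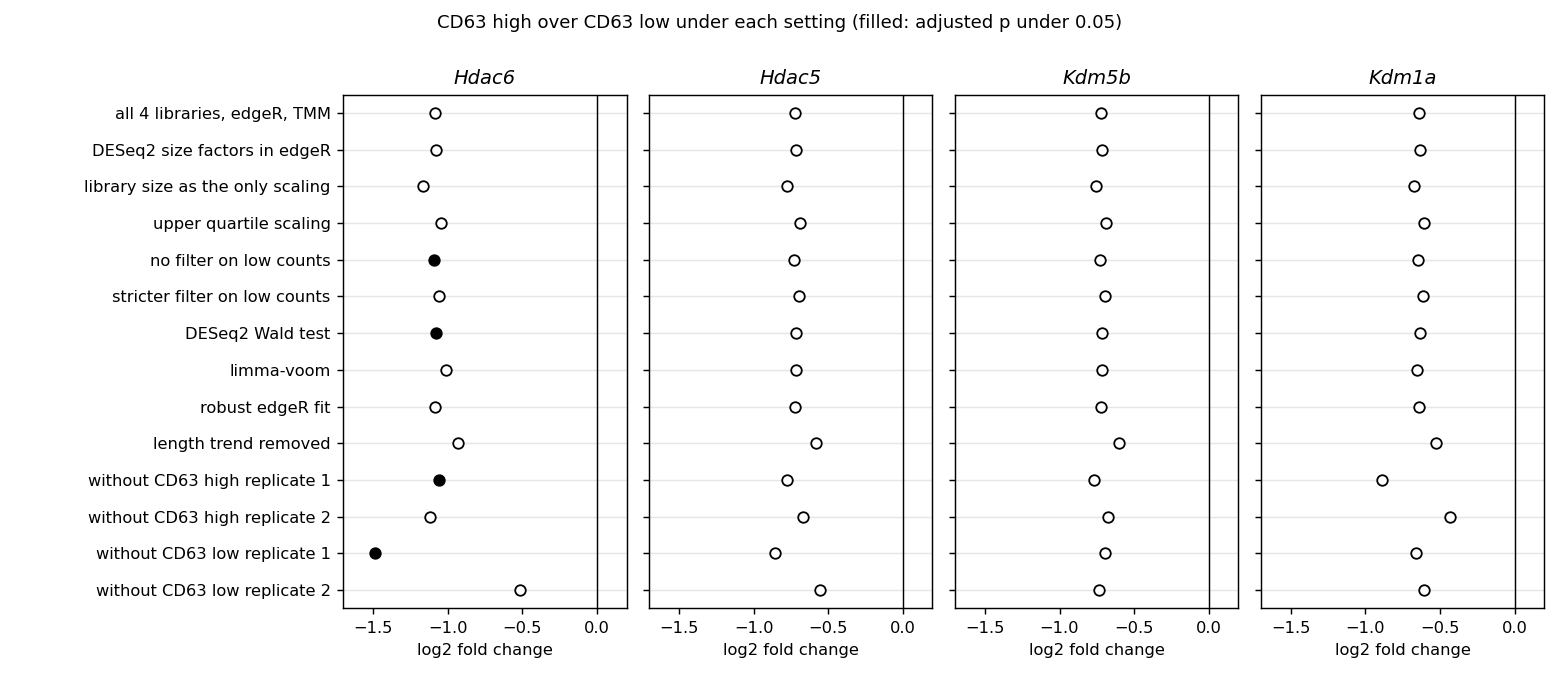
Log2 fold change of Hdac6, Hdac5, Kdm5b and Kdm1a (x axis) with all 4 libraries and under 13 alternatives without a replicate block (rows). Filled points mark an adjusted p under 0.05, and fits with a replicate block are not shown. All values lie below 0; Hdac6 is at -0.51 without CD63 low replicate 2 and at -1.48 without CD63 low replicate 1, whereas Kdm5b stays between -0.77 and -0.60.

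Other genes of the same complexes and reactions were also without a call. Of 99 partner genes listed by complex and reaction, 98 were tested and none was called in either direction, at the same background of 2.79%. DESeq2 and limma-voom called 0 as well. In the edgeR fit 6 of the 98 had an unadjusted p under 0.05, all lower. Over all tested genes 14.9% had such a p (5.96% lower and 8.95% higher). The median log2 fold change of the partner genes was -0.19, or -0.11 with the length trend removed. Values were below 0 for 64 and above 0 for 34, where 51.4% of all tested genes were below 0. The smallest p belonged to Cbx6 and Cbx7, chromobox readers of Polycomb repressive complex 1. Cbx6 stood at 38.0 and 33.5 against 54.6 and 53.8 CPM (-0.60, SE 0.20, edgeR adjusted p 0.166) and Cbx7 at 14.3 and 10.0 against 19.4 and 22.3 CPM (-0.78, SE 0.26, edgeR adjusted p 0.173).

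In the other partner lists the genes with the smallest p did not pass either. Among HDAC corepressor subunits, 12 of 19 were below 0, led by Tbl1xr1 of the NCoR complex (-1.03, SE 0.41) and Mta3 of NuRD (-0.46, SE 0.23). Paxip1, a subunit of the KMT2C and KMT2D complexes, was at 21.9 and 20.4 against 25.6 and 47.4 CPM (-0.79, SE 0.29, edgeR adjusted p 0.209), with the highest value, as for Hdac6, in CD63 low replicate 2, and Wdr5 was at -0.30. Smyd3 (-0.60) and Setdb2 (-0.72) led the other lysine methyltransferases, Phf8 (-0.48) and Hif1an (-0.45) the other Jumonji proteins, and Phf1 (-0.50) and Aebp2 (-0.49) the PRC2 accessory subunits. Of the genes named here, values above 0 came from the arginine methyltransferase Prmt6 (0.62, beside Carm1 at -0.67), the acetyltransferase Hat1 (0.42, beside Kat6b at -0.59) and the glycosylase Mbd4 (0.84, beside Mbd2 at -0.33). Uhrf1, which brings DNMT1 to replicated DNA, had 23 counts in CD63 high replicate 2 and 0 in the other libraries, and was not tested.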

How the data were processed

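Per the file headers, the authors deposited raw counts of read pairs per gene name, made with featureCounts 1.6.2 on the Cell Ranger mm10 3.0.0 annotation without strand or multi-mapping options. STAR 2.6.0c, FastQC and Cell Ranger are named per the submitters' processing notes. The labels' protocols give polyA RNA, SMARTer v4 cDNA and Nextera XT libraries. The kit marks no strand, so reads of genes that overlap on opposite strands cannot be told apart. Sirt7 and Mafg overlap on the same strand, where strand would not separate them. Exons of 21 of the 61 genes overlap another gene. Values of Kdm1b (Dek), Kdm2b (Rnf34), Kdm5a (Ccdc77), Kmt2e (Srpk2), Hdac7 (Slc48a1), Sirt2 (Nfkbib), Sirt3 (Psmd13, Ric8a) and Sirt7 (Mafg), among others, can be affected.

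All counts were fitted with edgeR 4.0.16 in R 4.3.3: filterByExpr (minimum count 10, total 15), TMM, glmQLFit and glmQLFTest between the groups, Benjamini-Hochberg adjustment over 13241 genes. Each standard error was obtained by dividing |log2 fold change| by the root of its F statistic. The biological coefficient of variation was 0.264. CPM are TMM-scaled, and FPKM use total counts and the deposited lengths. Total counts were 29249270 to 35003307, so 3 counts stand for 0.0857 to 0.103 CPM; such floors cover counting error only. Within-group counts differed far beyond sampling noise, so no library was a copy of another. The p-values reflect library-to-library spread, which may be technical, and the smallest two-sided exact permutation p with 2 against 2 is 0.333. The fits were tested on simulated data. Alternatives used limma 3.58.1 and DESeq2 1.42.0, among others.

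The genes and lists were chosen with earlier results of these data known. Values are given in full for genes called, the 10 smallest p, the highest level per length in each role, and non-overlapping genes with a log2 size of at least 1, and partner genes are the 2 with the smallest p per list. Further genes were named after their values were seen, to complete the roles. Sequences are from RefSeq (GRCm38.p6).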

Additional observations from a re-analysis of the deposited data

How the results depend on the processing

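The test called 0 of the 59 genes with all 4 libraries. It called 1 without a filter on low counts, with DESeq2, and with the replicate number as a block (Hdac6 each time), where 5.12%, 5.18% and 4.65% of all tested genes were called, and 0 with each other scaling, the stricter filter, limma-voom, the length trend removed and a robust fit. Leaving out each library in turn, with the lone library of a group assumed to vary like the other group, gave 0 to 2 calls: Hdac6 and Kdm1b without CD63 high replicate 1, Kdm8 without CD63 high replicate 2, Hdac6 and Kdm4c without CD63 low replicate 1, and 0 without CD63 low replicate 2. Of all genes these fits called 3.72%, 3.25%, 5.5% and 3.77%, in that order. All of these calls were lower in CD63 high cells. The partner genes gave 0 calls, except 1 without the filter (Paxip1) and 0 to 1 with each library left out. The replicate numbers share no stated origin, so the block pairs libraries by number only. It moved the calls of the partner genes by 0 and of all genes from 369 to 616. Deviations of same-numbered libraries correlated at -0.10 and those of crossed numbers at 0.10. These values are opposite by construction with 2 libraries per group, and which pairing holds was not tested. The replicate numbers follow the titles. The deposited files number the CD63 low libraries otherwise. There CD63 high replicate 2 and CD63 low replicate 1 share a number, as in the crossed pairing. Crossing the numbers, added after the data were seen, gave 4 calls among the 59 genes, 2 among the partners and 942 (7.11%) among all genes. The median log2 fold change of -0.17 became -0.065 with the length trend removed and lay between -0.24 and -0.17 with each library left out. The number of the 59 genes below 0 was 37 to 45 with each library left out, where 47.0% to 51.3% of all tested genes were below 0. Among the genes with values given in full, the sign changed for Tet3 (-0.94 to 0.23) and Kmt2e (-0.35 to 0.011), above 0 without CD63 low replicate 1, and for Sirt2 (-0.078 to 0.17) and Sirt4 (-0.036 to 0.59), below 0 without CD63 high replicate 1; the cause was not tested. Without a block, calls over all genes ranged from 67 with library size as the only scaling to 940 without the filter. Ezh2, Sirt1, Tet1, Hdac9 and Kdm4d, with 1 to 134 counts per library, had standard errors of 0.48 to 1.21, and their intervals reached a 2-fold change.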
